A study of Mus musculus with 2 samples.

Results

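Cluster 14 of the deposited clustering, annotated as red blood cells (RBCs), held 350 of the 17813 mononucleated cells profiled by single cell RNA-seq from dystrophic mouse muscle. Its members were all cells with that cluster number, 187 of 7156 cells in the mdx library and 163 of 10657 in the cKO library. The mdx mice carry the Dmd mutation of that strain on the BL/10 background and model Duchenne muscular dystrophy. The cKO mice carry the same mutation and, in addition, Spp1 alleles with loxP sites around exons 2 and 3 together with Lyz2Cre, which removes Spp1, the gene of the secreted glycoprotein osteopontin, from cells of the myeloid lineage. Whether the mdx controls carried the floxed alleles is not given in the sources used here, and their genotype label reads as a wild-type control although the title and library name say mdx. All were males of about 3 months, and muscles of the limbs and diaphragm were pooled. The study's methods give 3 mice per genotype, but each genotype is 1 library and the table does not tell mice apart. There is therefore no spread between mice and no test was run, and every interval covers the sampling of cells from 1 library only.

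Red blood cells arise from nucleated precursors that divide several times while they accumulate hemoglobin and shrink, then expel the nucleus and lose their mitochondria. In adult mice this takes place mainly in bone marrow and spleen. Mature mouse red cells in the blood carry no nucleus and make almost no RNA, so in droplet data they yield few transcripts from few genes. Hemoglobin chains such as those of Hba-a1 and Hbb-bs, and Alas2, the erythroid enzyme of the first step of heme synthesis, are the usual markers of the lineage. The table gives no value for these or any other gene, so the annotation could not be set against its markers here. It rests on the cell numbers given for RBCs in the study's supporting values, which no other single cluster equals in both libraries. Whether the members look like mature cells or like dividing nucleated cells was therefore examined through what the table does hold for each cell. These values are the count of unique molecular identifiers (UMIs, each marking 1 captured transcript), how many genes were detected, which share of UMIs was mitochondrial, and Seurat's S and G2M scores with the phase called from them. Each score is the mean expression of genes known for DNA synthesis or for G2 and mitosis, minus that of control genes, so a value near 0 means no excess.

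The preparation bears on which members could be seen. The suspension was treated with a buffer that lyses red blood cells and passed through a dead cell removal kit before loading. The deposited table starts at 501 UMIs and ends at 9.99% mitochondrial UMIs. Cells removed by lysis or by the lower limit on UMIs are not in the table, so the number of red cells in the muscle cannot be read from these libraries. The libraries held 43185486 UMIs in mdx and 59240298 in cKO, of which cluster 14 took 4.39% and 1.64%. Of 20 barcodes that both libraries shared, none belonged to a cell of cluster 14.

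Cluster 14 fell into 2 sets of cells by cell cycle score. One set lay around 0 on both scores and the other reached values among the highest in the whole table. In mdx the higher of a cell's S and G2M scores exceeded 0.2 in 90 of 187 cells (48.1%, 95% exact Clopper-Pearson interval 40.8 to 55.5). In cKO it did so in 71 of 163 cells (43.6%, 35.8 to 51.5). The cells above 0.2 had a median higher score of 0.881 in mdx and 0.925 in cKO, whereas those at or below it had medians of -0.00364 and 0.00591. The threshold fell where cells were sparse. Over both libraries 25 of the 350 cells lay between 0.1 and 0.3 and 10 between 0.3 and 0.5, while 173 lay at or below 0.1 and 142 above 0.5. These 2 sets are ranges of a score and not named cell types.

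**Figure D1:**
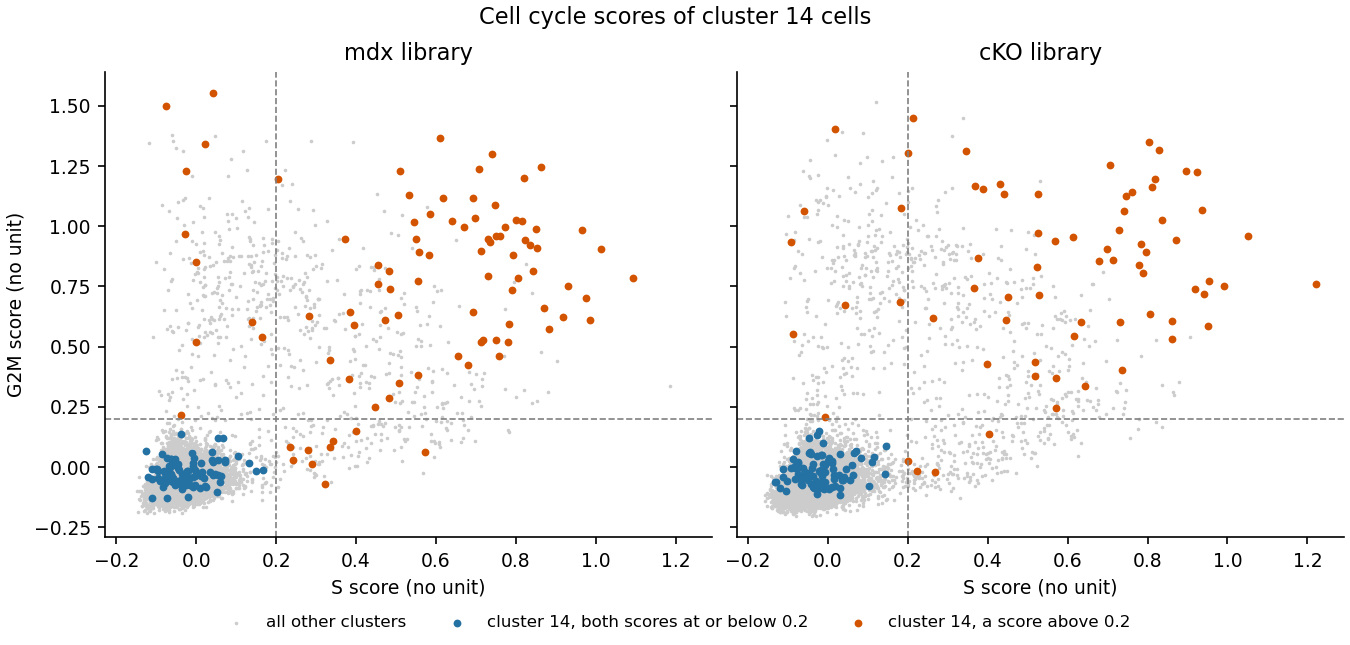
S score (x axis) against G2M score (y axis) of each cell in the mdx (left) and cKO (right) library, with cluster 14 cells in orange where either score is above 0.2 (dashed lines) and blue otherwise, and all other clusters in grey. Most orange cells lie above 0.2 on both scores, 71 of 90 in mdx and 59 of 71 in cKO.

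Most of the high scoring cells were high on both scores. Of the cells above 0.2 on at least 1 score, 71 of 90 in mdx (78.9%, 69.0 to 86.8) and 59 of 71 in cKO (83.1%, 72.3 to 91.0) were above it on both. Only 13 of the 161 such cells in both libraries were high on the S score alone and 18 on the G2M score alone. In other clusters with many high scoring cells the shares high on both were lower. They were 40.3% (34.4 to 46.4) in mdx and 41.1% (36.2 to 46.2) in cKO for cluster 11, which was grouped with the macrophages by cell numbers. For cluster 13, grouped with the neutrophils, they were 38.9% (32.7 to 45.4) and 41.8% (34.0 to 49.9). Cluster 15, grouped with the B cells, lay between at 62.0% (50.4 to 72.7) and 61.1% (43.5 to 76.9), and its intervals overlap those of cluster 14.

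The S scores of cluster 14 were high beside those of the same 3 clusters. Cells above 0.2 had a median S score of 0.614 in mdx and 0.615 in cKO. The corresponding medians were 0.285 and 0.308 in cluster 11, 0.189 and 0.190 in cluster 13, and 0.428 and 0.393 in cluster 15. Cluster 14 made up 1.96% of all cells but supplied 63 of the 100 cells with the highest S scores in the table. Cluster 15 supplied 20 of these, cluster 11 supplied 14 and cluster 13 supplied 1. On the G2M score the difference from cluster 15 was smaller, with medians of 0.789 and 0.855 in cluster 14 against 0.724 and 0.729. Cluster 11 had G2M medians of 0.489 in mdx and 0.472 in cKO, and cluster 13 had 0.634 and 0.732. The 100 highest G2M scores were spread more evenly than the highest S scores. Cluster 14 held 32 of them, cluster 15 held 27, cluster 11 held 25 and cluster 13 held 4, where clusters 14 and 15 have 350 and 282 cells. The clusters were made from the expressed genes of these same cells, cell cycle genes possibly among them, so these are descriptions of the cluster and not tests of it.

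**Figure D2:**
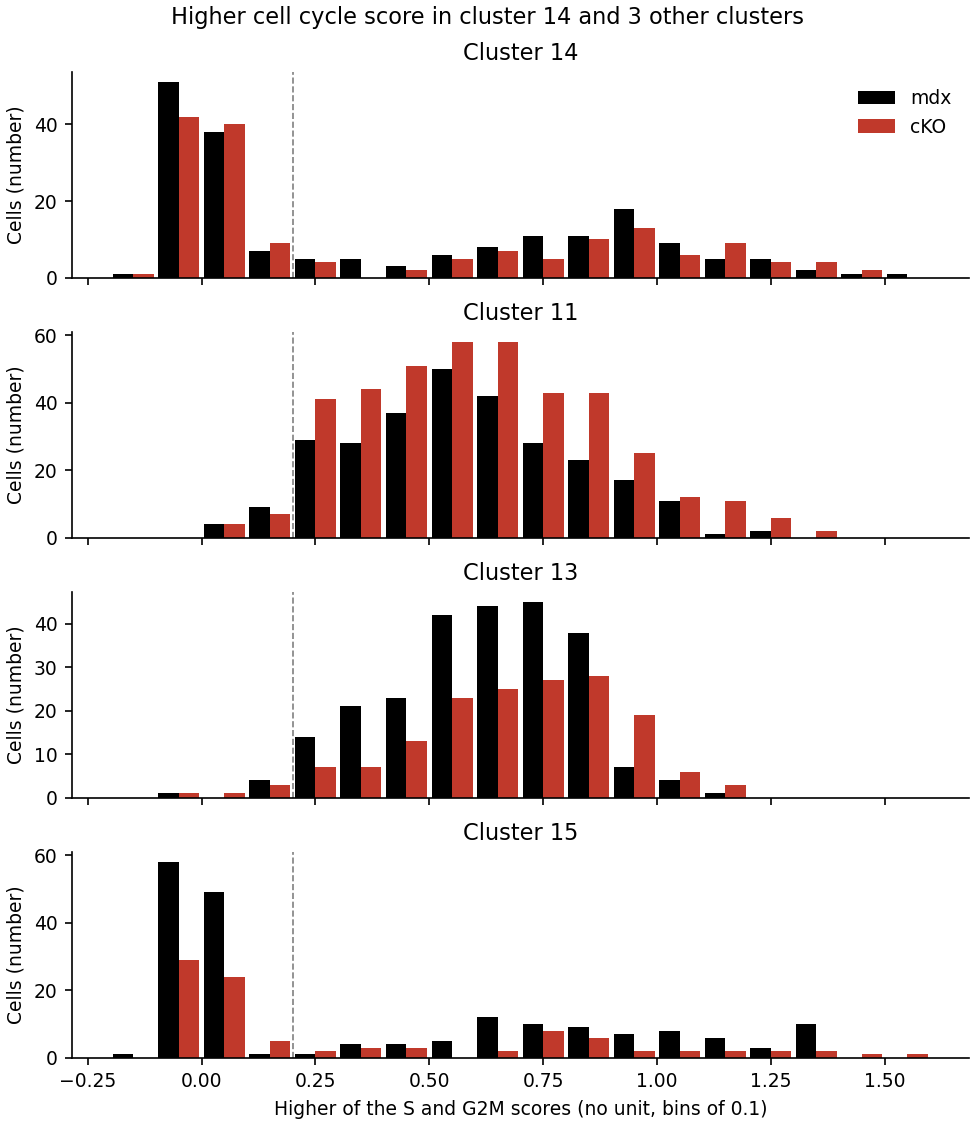
Number of cells (y axis) by the higher of the S and G2M scores (x axis, bins of 0.1) in clusters 14, 11, 13 and 15 in mdx (black) and cKO (red), with the dashed line at 0.2. Clusters 14 and 15 each show a peak near 0 and a broad second group of cells, and in clusters 11 and 13 nearly all cells lie above 0.2.

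By the share of cells above 0.2, cluster 14 came in at rank 3 of the 20 clusters in both libraries. It stood well below cluster 13 (98.0% in mdx and 96.9% in cKO) and cluster 11 (95.4% and 97.3%). It was close to cluster 15, with 42.0% (34.9 to 49.4) in mdx and 38.3% (28.5 to 48.9) in cKO, whose intervals overlap those of cluster 14. Muscle stem cells, cluster 18, came next with 12.5% of 32 cells and 27.2% of 81 cells. The small cluster 14 held 11.8% of all cells above 0.2 in mdx (90 of 764) and 7.87% in cKO (71 of 902).

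**Figure D3:**
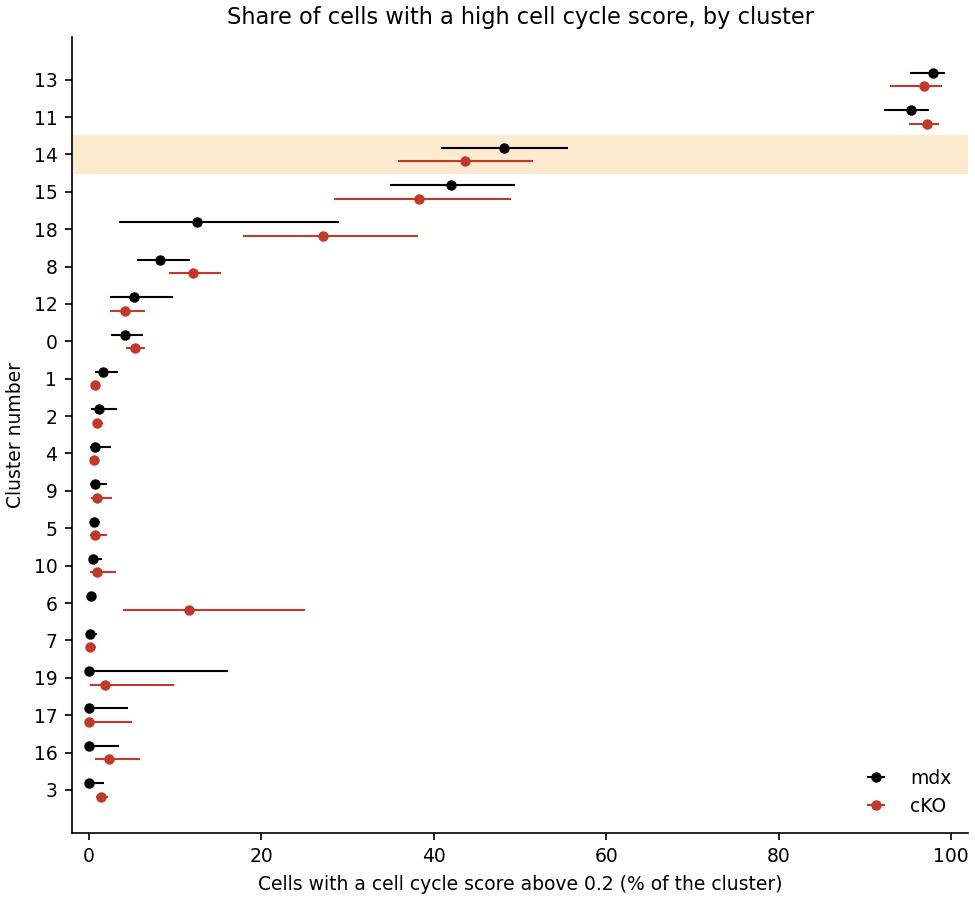
Percent of the cells of each cluster (y axis, ordered by the mdx value) with an S or G2M score above 0.2 (x axis), with mdx in black, cKO in red and 95% exact binomial intervals as bars. Cluster 14, shaded, lies at 48.1% and 43.6%, between clusters 11 and 15.

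The phase calls gave a larger share than the scores. In cluster 14 the calls were S or G2M for 72.2% in mdx (65.2 to 78.5) and for 73.6% in cKO (66.2 to 80.2). In mdx 57 cells were called S, 78 G2M and 52 G1, and in cKO 49, 71 and 43. A cell is called S or G2M here as soon as either score reaches 0, and this reading of the 2 scores returned all 17813 deposited calls. Of the 255 cells of cluster 14 called S or G2M, 94 had neither score above 0.2. A call alone is a loose measure, as T cell cluster 5 had 60.4% of its mdx cells called S or G2M and 0.518% above 0.2. Neutrophil cluster 7 had 73.1% called in mdx and 70.3% in cKO, with 0.156% and 0.147% above 0.2. By the share called, cluster 14 had rank 4 of the 20 clusters in mdx and rank 3 in cKO.

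The 2 sets of cells also differed in how much RNA was captured. Cells above 0.2 had a median of 11066.5 UMIs in mdx (95% order-statistic interval over cells 8889 to 15730) and 7793 in cKO (5709 to 10126). Those at or below 0.2 had 4945 (4602 to 5373) and 2481 (2064 to 3064). Genes per cell followed, with medians of 2672.5 and 2476 in the higher set and 1848 and 1145 in the lower. For the cluster as a whole the median was 6369 UMIs in mdx and 3457 in cKO, with 2008 genes detected in mdx and 1489 in cKO. By median UMIs it had rank 8 of the 20 clusters in mdx and rank 12 in cKO. The median over all cells was 4154.5 UMIs in mdx and 4696 in cKO. The cluster's median was thus above that of its library in mdx and below it in cKO. The cell with the most UMIs in the whole table, 59452 UMIs from 6596 genes, was an mdx cell of this cluster, with an S score of 0.395 and a G2M score of 0.591. Cluster 14, with 1.96% of all cells, held 15 of the 100 cells with the most UMIs. Cluster 11, with 686 of the 17813 cells, held 20. This list pools the 2 libraries. No doublets were called, and the part of droplets holding more than 1 cell in these values was not tested.

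Over all cells of cluster 14 the higher score was larger in cells with more UMIs, with a Spearman rho of 0.39 in mdx (187 cells) and 0.44 in cKO (163 cells). Among the cells above 0.2 it ran the other way, with -0.30 (90 cells) and -0.33 (71 cells). Thinning every cell to the same number of UMIs needs counts per gene, which the table does not hold, so the scores were also read within bands of UMIs. Between 5001 and 10000 UMIs, 29 of 67 cells of cluster 14 in mdx were above 0.2 (43.3%, 31.2 to 56.0), against 8.51% of the 1740 cells of all other clusters (7.24 to 9.92). In cKO the shares were 84.0% (21 of 25, 63.9 to 95.5) and 8.54% (7.66 to 9.49). Between 2001 and 5000 UMIs they were 25.6% (10 of 39) against 1.10% in mdx, and 26.4% (19 of 72) against 2.91% in cKO. At up to 2000 UMIs only 4 of 25 and 3 of 37 cells were above 0.2, while above 10000 UMIs 47 of 56 and 28 of 29 were. In every band and both libraries the share in cluster 14 was thus above that of the remaining cells, although at up to 2000 UMIs the cKO interval (1.70 to 21.9) overlapped that of the other clusters (1.20 to 2.41). The remaining cells are mostly low in score, and the 3 clusters with many high scoring cells were not below cluster 14 at 5001 to 10000 UMIs. In that band the mdx shares were 94.4% (81.3 to 99.3) in cluster 15, 96.3% in cluster 11 and 96.8% in cluster 13, against the 43.3% of cluster 14. In cKO they were 92.3% (64.0 to 99.8), 98.0% and 96.6%, against 84.0%. Cluster 15 was thus close to cluster 14 in its share over all depths but not at this depth in mdx.

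Genes per UMI were not unusual once depth was matched. As deposited, the cluster yielded a median of 310 genes per 1000 UMIs in mdx and 419 in cKO, a ratio that falls as UMIs rise in any cell. Each cell's gene number was therefore divided by the median gene number of cells from other clusters of its library with UMIs within 10% of its own. The median of this ratio was 1.01 in mdx (0.984 to 1.04, 182 cells) and 1.02 in cKO (0.999 to 1.04, 162 cells), and 6 cells had under 20 such neighbors and were left out. The value near 1 hid a difference within the cluster. Cells above 0.2 had fewer genes than others of their depth, with ratios of 0.933 in both mdx (0.909 to 0.970) and cKO (0.886 to 0.959). Cells at or below 0.2 had more, with 1.08 (1.05 to 1.10) and 1.06 (1.05 to 1.07). By its median, the lower set thus did not have its UMIs concentrated in few genes. By the same measure the cells above 0.2 had 1.06 and 1.04 in cluster 11, 0.816 and 0.836 in cluster 13, and 1.06 and 1.03 in cluster 15. Cells at or below 0.2 had 1.10 in mdx and 1.12 in cKO in cluster 15. In cluster 11 they had 1.02 (13 cells) and 1.06 (11 cells).

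**Figure D4:**
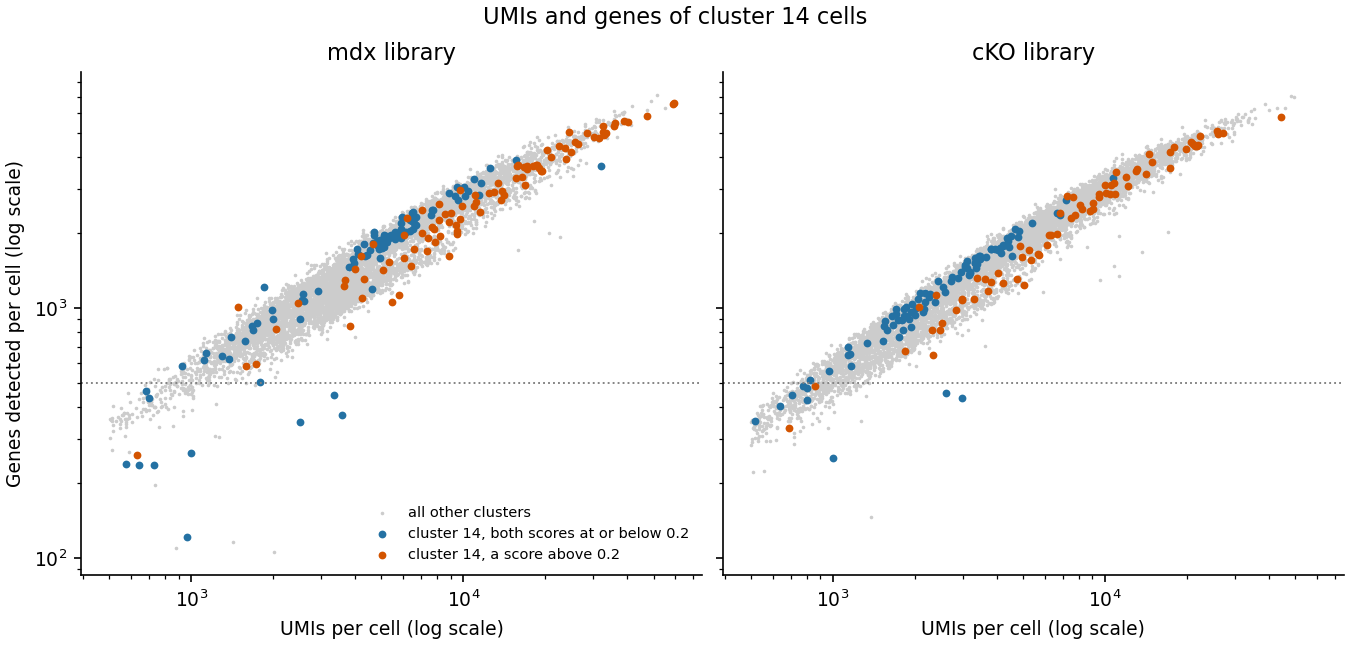
UMIs per cell (x axis, log scale) against genes detected per cell (y axis, log scale) in mdx (left) and cKO (right), with cluster 14 cells in orange where a cell cycle score is above 0.2 and blue otherwise, all other clusters in grey, and a dotted line at 500 genes. Against other cells of their depth, blue cells had more genes by median (ratios of 1.08 in mdx and 1.06 in cKO). Orange cells had fewer (0.933 in both), and 22 cluster 14 cells in all lie under 500 genes.

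Few members combined few genes, few mitochondrial transcripts and UMIs concentrated in few genes, the profile looked for in a mature red cell. Under 500 genes were detected in 11 of the 187 cells from mdx (5.88%, 2.97 to 10.3) and in 11 of the 163 from cKO (6.75%, 3.42 to 11.8), and 19 of these 22 cells were at or below 0.2 on both scores. This share had rank 4 of the 20 clusters in both libraries, so such cells were more frequent here than in most clusters. A mitochondrial share under 1% was seen in 7 mdx and 6 cKO cells, and 7 of these 13 cells were above 0.2, so a low mitochondrial share did not mark the low scoring cells. By the percent of cells under 1%, the cluster had rank 5 in mdx and rank 7 in cKO. Concentration of UMIs in few genes was read from the log10 of genes divided by the log10 of UMIs, where values below 0.8 are rare. This was so for 23 cells in the table, of which 9 were in cluster 14 (3.21% of its mdx and 1.84% of its cKO cells). Cluster 10, also grouped with the B cells, had 4 in mdx (0.818%) and 5 in cKO (2.17%), so the feature was not particular to cluster 14. The 9 include mdx cells with 59452 UMIs from 6596 genes and 31994 UMIs from 3700 genes, which did not have few genes. All 3 features together were found in 5 cells of cluster 14, 3 from mdx and 2 from cKO. In the mdx cell of this kind with the most UMIs, 3587 UMIs came from 373 genes and 0.530% of them were mitochondrial. In the cKO counterpart 2987 UMIs came from 436 genes, with 0.636% mitochondrial. All 5 had both scores below 0.2. At least 1 of the 3 features was present in 31 of the 350 cells. These limits were chosen with values of these data known, and the globin share of these UMIs was not analysed here.

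The mitochondrial share of the cluster as a whole was in the middle of the 20 clusters, at rank 8 in mdx and rank 11 in cKO. Its median was 4.11% of UMIs in mdx (3.72 to 4.64) and 3.87% in cKO (3.44 to 4.18). Cells above 0.2 had a lower median, 3.44% (2.93 to 4.09) in mdx and 3.38% (2.97 to 4.04) in cKO, than the cells at or below it, with 4.98% (4.14 to 5.35) and 4.22% (3.68 to 4.70). Neutrophil clusters 7 and 9 show what a low share looks like in these libraries, with medians of 0.377% and 0.832% in mdx.

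Within the high scoring cells a gradient ran from deep cells with more mitochondrial UMIs to shallower cells with fewer. Those with over 10000 UMIs had a median mitochondrial share of 4.15% in mdx (47 cells, 3.82 to 4.68) and 4.03% in cKO (28 cells, 3.52 to 4.43). Those with up to 10000 UMIs had 2.13% (43 cells, 1.69 to 3.11) and 2.60% (43 cells, 2.10 to 3.44). The shallower cells had the higher median G2M score, 0.907 against 0.630 in mdx and 0.941 against 0.668 in cKO, with intervals that overlap in both libraries (0.773 to 0.995 against 0.529 to 0.815, and 0.771 to 1.08 against 0.534 to 0.838). They also had fewer genes for their depth, with ratios of 0.866 against 0.969 in mdx and 0.855 against 0.982 in cKO. The divide at 10000 UMIs was chosen after the values were seen. Over the 90 mdx cells above 0.2 the mitochondrial share and the G2M score had a Spearman rho of -0.43 (Pearson r -0.41), and over the 71 cKO cells -0.45 (-0.38). These values are across cells that share a library, and both measures depend on the UMIs of the cell. In cluster 11 the median mitochondrial shares on the 2 sides of the same divide were 3.85% and 4.08% in mdx and 3.82% and 4.34% in cKO. In cluster 13 they were 1.72% and 1.76% in mdx, whereas in cKO the deeper cells again had more, 2.65% (2.07 to 3.06) against 1.76% (1.58 to 1.91). In cluster 15 the shallower cells had the higher share, 5.02% against 4.76% and 4.86% against 3.96%. A higher share in the deeper cells was thus also seen outside cluster 14. So was a higher median G2M score in the shallower cells. In cluster 11 it was 0.541 (0.354 to 0.780) against 0.475 (0.380 to 0.548) in mdx. In cKO it was 0.520 (0.376 to 0.627) against 0.421 (0.302 to 0.562), and the intervals overlap in both libraries. In cluster 15 it was 0.909 against 0.541 in mdx, but 0.684 against 0.740 in cKO. In cluster 13 it was 0.745 against 0.616 in cKO, but 0.564 against 0.666 in mdx. Over the cells above 0.2 of cluster 14, UMIs and the G2M score had a Spearman rho of -0.29 in mdx and -0.32 in cKO. The corresponding values were -0.056 and -0.0079 in cluster 11, 0.16 and -0.034 in cluster 13, and -0.17 and -0.016 in cluster 15.

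**Figure D5:**
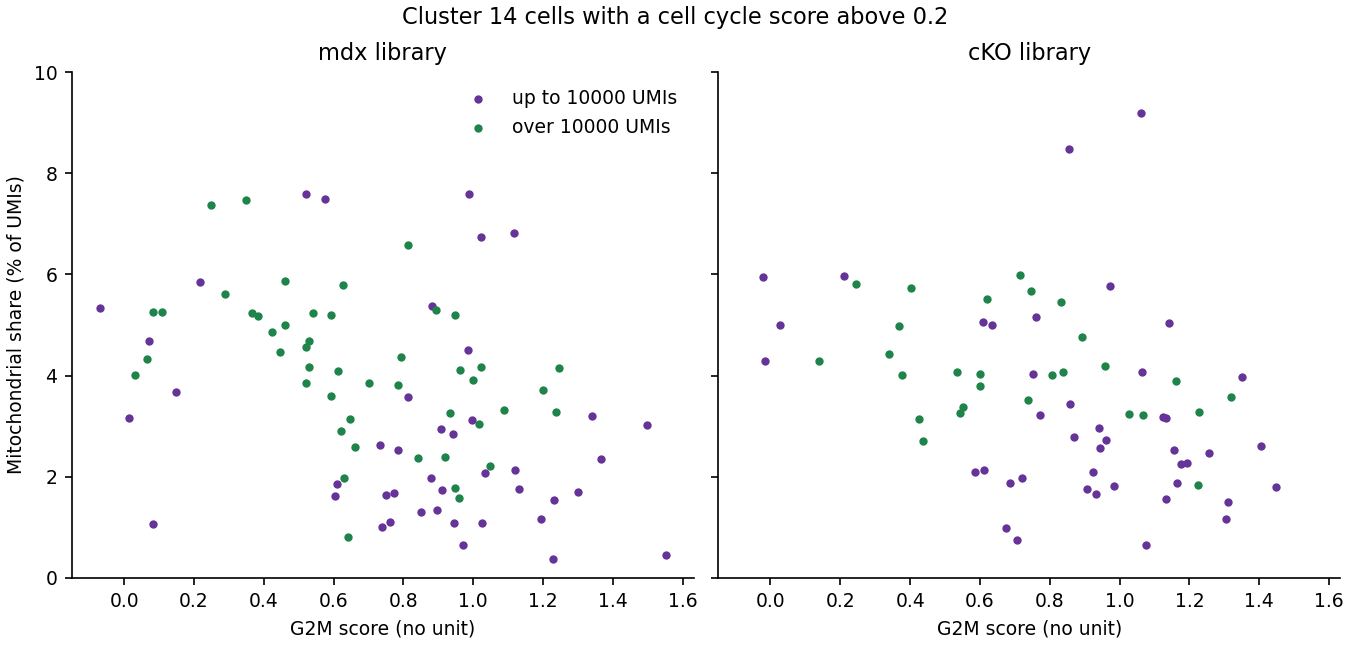
G2M score (x axis) against the mitochondrial share of UMIs (y axis, percent) for cluster 14 cells with a cell cycle score above 0.2 in mdx (left, 90 cells) and cKO (right, 71 cells), coloured by UMIs per cell. Cells with up to 10000 UMIs (purple) have medians of 2.13% and 2.60%, below the 4.15% and 4.03% of cells with over 10000 UMIs (green).

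Between the genotypes, the cluster was a smaller share of the cKO library. In mdx 2.61% of all cells belonged to it (2.26 to 3.01), against 1.53% in cKO (1.31 to 1.78). Both sets of cells had the lower share in cKO. Cells above 0.2 were 1.26% of the mdx library (1.01 to 1.54) and 0.666% of the cKO library (0.521 to 0.840). The ratio of cKO to mdx was 0.530 (95% log interval 0.389 to 0.722). Cells at or below 0.2 were 1.36% (1.10 to 1.65) and 0.863% (0.696 to 1.06), a ratio of 0.637 (0.480 to 0.846). The ratio for the whole cluster, 0.585 (0.475 to 0.721), depended on the denominator and on the cells kept. Over cells other than macrophages it was 0.857 (0.697 to 1.05), and over cells that were neither macrophages nor stromal cells it was 1.12 (0.910 to 1.37), so fewer cells of this cluster and more of other types cannot be told apart. With only cells of 200 to 1800 genes, the limits that the methods state, the ratio was 1.42 (1.05 to 1.92), and the shares of cluster 14 cells above 0.2 were 33.3% in mdx and 25.7% in cKO.

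Over all depths together, a difference between genotypes in the makeup of the cluster was not detectable at these numbers of cells. The share of cells above 0.2 was 4.57 percentage points lower in cKO than in mdx, with a Newcombe interval from -14.8 to 5.85 that includes 0. For cells called S or G2M the difference was 1.43 points (-7.94 to 10.6). Both are within counting error at 187 and 163 cells, and the intervals leave room for differences of either sign. Between 5001 and 10000 UMIs, however, the shares above 0.2 were apart. They were 43.3% (31.2 to 56.0) of 67 mdx cells and 84.0% (63.9 to 95.5) of 25 cKO cells. In the other bands of UMIs the intervals of the 2 libraries overlap. The part of depth in this contrast was not tested. The median UMIs per cell was 1.84 times as high in mdx as in cKO, at rank 2 among the ratios of the 20 clusters. It was 1.99 among cells at or below 0.2 and 1.42 among cells above it. In 16 of the 20 clusters the median was higher in mdx, by 1.26 to 2.44 times. Over all cells of each library it was lower in mdx, 4154.5 against 4696 in cKO. The part of the library's depth in the difference was not tested.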

How the data were processed

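Mononucleated cells of 1 mdx and 1 cKO library were profiled by 3' single cell RNA-seq (10x Genomics). Cell Ranger 7 and mm10 are named in the submitters' processing notes, and Seurat in the study's methods. The deposited UMI and gene counts are raw whole numbers per cell. The mitochondrial values are a deposited fraction of UMIs, given as percent in the text. S and G2M values were deposited as a Seurat score for each phase, with settings not given in the sources used here. Cells were clustered by the authors at a resolution of 0.5, and the libraries, named Neg and Pos, were matched to mdx and cKO as Cre-negative and Cre-positive.

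The limit of 200 to 1800 genes in the methods does not describe the table, which spans 105 to 7094 genes. Shares with exact (Clopper-Pearson) intervals, a log interval for ratios, Newcombe intervals for differences, and medians with order-statistic intervals, all at 95%, were computed with SciPy 1.17.1, NumPy 2.4.6 and pandas 2.3.3 under Python 3.11.15, and drawn with Matplotlib 3.10.9. The scripts were tested on simulated data. No test was run, as each genotype is 1 library. The comparison clusters were the 3 others with the highest shares of cells above 0.2, and no gene was given a value. The members, the threshold of 0.2, the lists and the alternatives (filters on genes and UMIs, thresholds, denominators, matching windows and pools) were chosen with earlier results of these data known. Gene expression was not analysed here.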

Additional observations from a re-analysis of the deposited data

How the results depend on the processing

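Of 55 recomputed values, 43 moved by less than their interval. The ratio of the cluster's share in cKO to that in mdx, 0.585, became 0.857 without macrophages in the denominator and turned to 1.12 without macrophages and stromal cells. With only cells of 200 to 1800 genes, the limits of the methods, it turned to 1.42 (1.05 to 1.92). These limits kept 35.3% of the cluster's mdx cells and 66.9% of its cKO cells. They were also applied to the cells of all other clusters in the denominator. The same limits lowered the share of cells above 0.2 to 33.3% in mdx and 25.7% in cKO, the share called S or G2M in cKO to 65.1%, the median UMIs to 3460 and 2516, and the mdx mitochondrial median to 2.86%, and they gave a matched gene ratio of 1.04 in cKO. When the deepest 5% of cells of each library were left out, mdx had 38.9% of cells above 0.2 and a median of 5607 UMIs. Thresholds of 0.1 and 0.3 gave shares of 51.9% and 45.5% in mdx and of 49.1% and 41.1% in cKO. No paired analysis was possible because each genotype is 1 library. For the same reason no library could be left out, and differences between mice and between preparations cannot be told apart from the genotype.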
